A study of Mus musculus with 6 samples.

Results

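The interferon regulatory factors (IRFs) are a family of DNA-binding transcription factors, and 8 of their genes, Irf1 to Irf5 and Irf7 to Irf9, were followed in ILC2s (group 2 innate lymphoid cells) that had been purified from the lungs of mice. They were taken by gene name from the authors' deposited comparison of 2 genotypes, as 8 of the 39527 genes in it, and all 8 were among the 14961 genes that carry an adjusted p. The labels give 3 KO samples, from R5/+ mice with floxed alleles of LKB1 (R5/+LKB1f/f), and 3 WT samples, from R5/+ mice. Both groups are R5/+, and both received a challenge with IL-33, the alarmin that activates ILC2s, for 4 days. Each sample pooled 3 to 4 mice. LKB1, encoded by Stk11, is the kinase that activates AMPK and its relatives. Not given in the sources used here: how old the mice were, what R5 stands for and which Cre acts on the floxed alleles.

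IRFs recognise GAAA repeats, the interferon-stimulated response element (ISRE), through a conserved N-terminal domain marked by tryptophans. IRF3, IRF5 and IRF7 wait in the cytoplasm and are activated by kinases below nucleic acid sensors and Toll-like receptors, whereas IRF9 acts with STAT2 below the type I interferon receptor. IRF1 and IRF2 compete for the same elements, and IRF4 and IRF8 bind weakly alone and depend on partners such as BATF-JUN or PU.1. In lymphocytes IRF4 is induced by antigen receptor or alarmin signals and takes part in cytokine production by type 2 cells.

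Whether KO was divided by WT or WT by KO is not stated, so each sign is given as deposited and no gene is assigned to the KO or the WT side. Stk11, the gene floxed in KO, had a log2 fold change of -1.34 ± 0.30 (SE) per the authors' deposited table, and a negative sign below is the sign of Stk11. That value covers the whole gene, exons outside the floxed part included. A gene is counted as positive or negative when its adjusted p was below 0.05. Values for single samples were not used here, because the columns that hold them could not be matched to the labels, and depth per sample and the overlap between KO and WT samples are therefore not given. Each value is 1 fold change with 1 standard error over the libraries of the authors' fit, whose number is not stated. In bulk RNA, fewer cells of a type and less RNA per cell cannot be told apart.

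Of the 8 IRF genes, 4 were positive (Irf7, Irf5, Irf9 and Irf1), 1 was negative (Irf4) and 3 did not pass (Irf2, Irf3 and Irf8). Of all tested genes 24.5% were called, 11.0% as positive and 13.5% as negative. Calls were more frequent among well expressed genes: of the 6612 genes at or above the mean count of Irf8, the lowest among the members, 36.6% were called, 15.3% as positive and 21.4% as negative. The members' fold changes had a median of 0.33, against -0.0056 over all tested genes, and 7 of 8 lay above 0, against 49.6% of tested genes. No test was made of the family as a set, since its members were chosen with results of these data known.

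**Figure D1:**
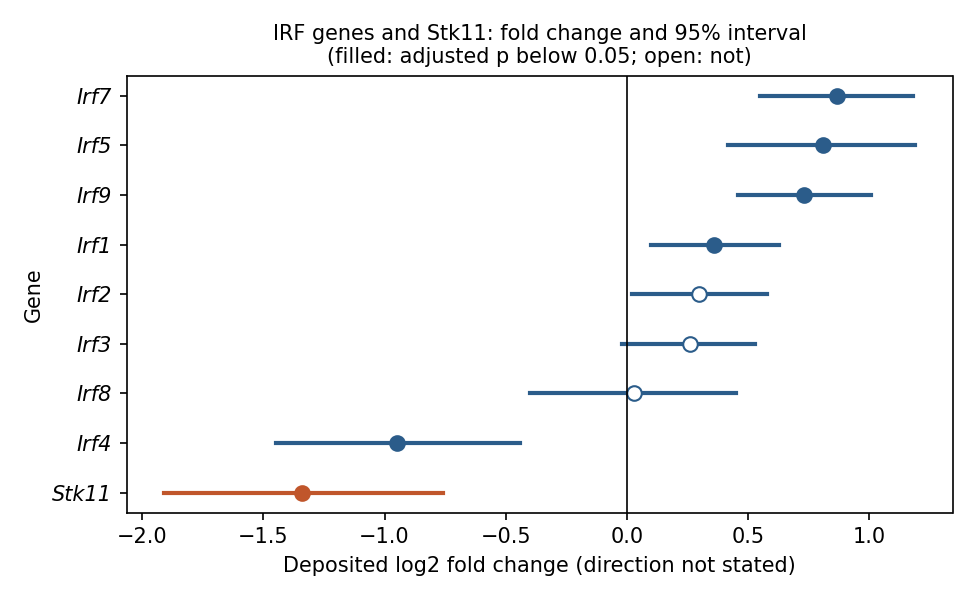
Deposited log2 fold change (x axis) of each IRF gene and of Stk11 (y axis), as a point with its 95% interval, filled where the adjusted p was below 0.05. Irf7, Irf5 and Irf9 sit together between 0.73 and 0.87, Irf8 sits at 0.03, and Irf4 at -0.95 is the IRF gene on the side of Stk11.

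The promoter windows of the 8 genes, 250 bases before to 50 after a RefSeq transcript start (GRCm38.p6), were searched on both strands for the ISRE core (GAAA, any 2 bases, then GAAA again), the STAT element GAS as TTCNNNGAA, the AP-1 site TGANTCA and the CREB site TGACGTCA. These stand for the interferon, STAT, BATF-JUN and cAMP routes. A GAS match was found in 3 of 8 members (Irf1, Irf2 and Irf8), against 8.3% of 32851 promoters in the table. An ISRE core was found in 1 of 8 (Irf2), against 3.44% of promoters. AP-1 and CRE matches were found in 0 of 8, against 7.81% and 1.79% of promoters. Where RefSeq gave several starts, the window nearest the GENCODE start was used, and the other windows of Irf1, Irf8 and Irf9 held no match. The Irf9 windows lie inside the annotated gene, so no base before its GENCODE start was searched. A match is a run of letters and not a shown binding site.

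The stretches upstream of the annotated gene are shown for 4 members, picked after their fold changes were seen. Irf1 and Irf8 hold GAS letters and had fold changes of 0.36 and 0.03 per the authors' deposited table. Irf7 and Irf4 hold none of the motifs and had 0.87 and -0.95 per the authors' deposited table. Irf3, not shown, holds none either and had 0.26, between Irf8 and Irf1, per the authors' deposited table. Capitals mark the matches, and each is written 5′ to 3′ on the strand of its gene.
Irf1, chr11:53769764-53770013, plus strand: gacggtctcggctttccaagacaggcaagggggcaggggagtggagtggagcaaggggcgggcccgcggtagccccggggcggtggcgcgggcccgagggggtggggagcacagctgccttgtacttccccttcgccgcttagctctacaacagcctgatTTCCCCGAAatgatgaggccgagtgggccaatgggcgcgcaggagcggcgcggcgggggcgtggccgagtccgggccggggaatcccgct
Irf8, chr8:120736108-120736357, plus strand: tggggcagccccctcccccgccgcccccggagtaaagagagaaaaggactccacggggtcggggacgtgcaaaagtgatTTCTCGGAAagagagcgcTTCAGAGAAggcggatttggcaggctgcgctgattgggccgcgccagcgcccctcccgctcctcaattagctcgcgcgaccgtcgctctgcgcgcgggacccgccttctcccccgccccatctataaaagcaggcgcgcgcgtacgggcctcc
Irf7, chr7:141266482-141266674, minus strand: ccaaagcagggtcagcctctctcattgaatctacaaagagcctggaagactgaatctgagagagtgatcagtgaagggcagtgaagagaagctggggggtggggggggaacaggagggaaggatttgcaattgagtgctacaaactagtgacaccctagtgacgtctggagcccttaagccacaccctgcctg
Irf4, chr13:30748983-30749225, plus strand: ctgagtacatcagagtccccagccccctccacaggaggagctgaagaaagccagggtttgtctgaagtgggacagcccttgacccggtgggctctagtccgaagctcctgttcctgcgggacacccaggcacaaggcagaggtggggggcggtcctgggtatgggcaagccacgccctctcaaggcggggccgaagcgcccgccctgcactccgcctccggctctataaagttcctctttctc

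Irf2 held both kinds of letters side by side, an ISRE core that begins at base -241 and a GAS that begins at base -224 from its start, within this stretch of chr8:46739504-46739529 on the plus strand: GAAAATGAAAttgacttTTCCGAGAA. Its fold change of 0.30 did not pass per the authors' deposited table. The members with a GAS match thus had fold changes from 0.03 to 0.36 per the authors' deposited table, and the 5 members with no match had fold changes from -0.95 to 0.87. The fold changes of members with a match lay within the range of those without.

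**Figure D2:**
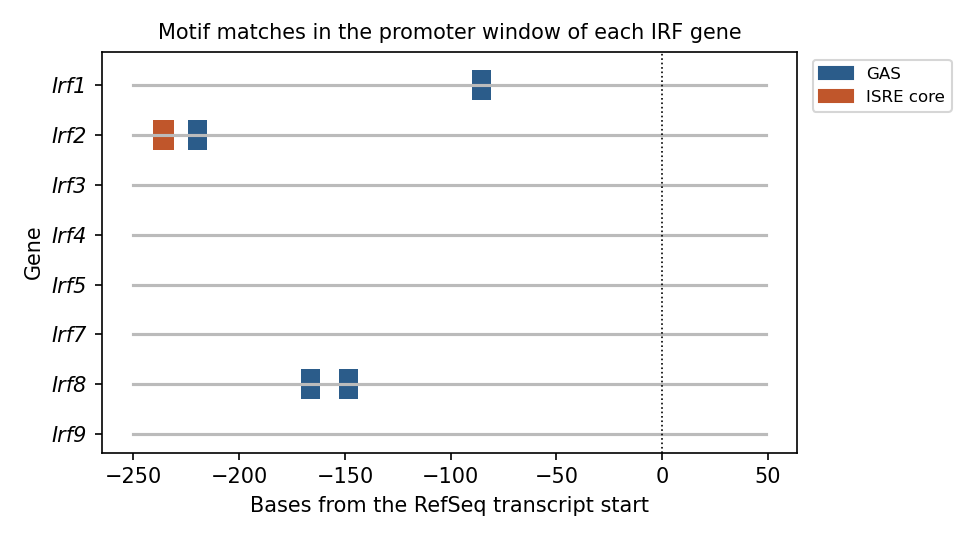
Position of the motif matches (coloured boxes) in the promoter window of each IRF gene (y axis), in bases from the RefSeq transcript start (x axis). Irf1, Irf2 and Irf8 hold GAS letters, Irf2 also holds an ISRE core, and the windows of the other 5 members hold none of the 4 motifs.

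Irf7 had the highest test score of the family. IRF7, the factor that amplifies type I interferon production, is itself encoded by an interferon-induced gene. Its gene had a mean of 803.4 normalized counts and a log2 fold change of 0.87 ± 0.16 (SE), a ratio of 1.82 with a 95% interval of 1.47 to 2.26, per the authors' deposited table. Its adjusted p was 1.72e-06, and it ranked at position 434 of the 14961 tested genes by p per the authors' deposited table. Irf7 (ENSMUSG00000025498) lies on the minus strand of mm10 chromosome 7, from 141262706 to 141266481.

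Irf9 followed at position 557. IRF9 is the DNA-binding subunit of ISGF3, the complex through which type I interferon turns on genes with an ISRE. Irf9 (ENSMUSG00000002325, chromosome 14, 55603571 to 55610030) had a mean of 943.3 normalized counts and a log2 fold change of 0.73 ± 0.14 (SE), a ratio of 1.66 with an interval of 1.37 to 2.02, per the authors' deposited table (adjusted p = 6.85e-06).

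Irf5 had a fold change of nearly the same size as Irf7. IRF5 acts below Toll-like receptors and MyD88 and is best known from macrophages, dendritic cells and B cells. Irf5 (ENSMUSG00000029771, chromosome 6, 29526625 to 29541871) had a mean of 1457 normalized counts and a log2 fold change of 0.81 ± 0.20 (SE), a ratio of 1.75 with an interval of 1.34 to 2.29, per the authors' deposited table (adjusted p = 0.000487). The intervals of Irf5, Irf7 and Irf9 overlap one another, so their order by size is not resolved.

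Irf1 was positive by a smaller amount. IRF1 is induced by interferon gamma and drives antigen presentation genes. Irf1 (ENSMUSG00000018899, chromosome 11, 53770014 to 53778374) had a mean of 5383 normalized counts and a log2 fold change of 0.36 ± 0.14 (SE), a ratio of 1.29 with an interval of 1.07 to 1.55, per the authors' deposited table. Its adjusted p was 0.0357 per the authors' deposited table and ranged from 0.0185 to 0.0918 over the alternatives. The call was lost when p was adjusted over every gene with a p-value, and at a threshold of 0.01.

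Irf4 was the negative member. Irf4 (ENSMUSG00000021356, chromosome 13, 30749226 to 30766976) had a mean of 871.2 normalized counts and a log2 fold change of -0.95 ± 0.26 (SE), a ratio of 0.519 with an interval of 0.366 to 0.736, per the authors' deposited table (adjusted p = 0.00209). Its standard error was the widest among the 8 members, which ranged from 0.14 to 0.26, beside a median of 0.233 over all tested genes. On the log2 scale its interval, from -1.45 to -0.44, overlapped that of no other IRF gene. The call was kept under each of the 5 alternatives tried.

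The other three members did not pass. Irf2, whose product competes with IRF1 at shared elements, had a log2 fold change of 0.30 ± 0.14 (SE) per the authors' deposited table, with an interval of 0.02 to 0.58 and an adjusted p of 0.114. Irf3, the constitutively expressed factor that is activated by phosphorylation, had 0.26 ± 0.14 (SE) per the authors' deposited table, with an interval of -0.02 to 0.53 and an adjusted p of 0.187. Both intervals still hold log2 values above 0.5. Irf8, a factor of dendritic cell and B cell development, had 0.03 ± 0.22 (SE) per the authors' deposited table, with an interval of -0.40 to 0.45 and an adjusted p of 0.95, and its sign turned (-0.05) when a trend with gene length was removed. Log2 values for Irf8 below -0.40 or above 0.45 lie outside its interval. Irf2 (ENSMUSG00000031627, 46739732 to 46847458) and Irf8 (ENSMUSG00000041515, 120736358 to 120756694) are on chromosome 8, and Irf3 (ENSMUSG00000003184, 44997648 to 45002848) is on chromosome 7.

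**Figure D3:**
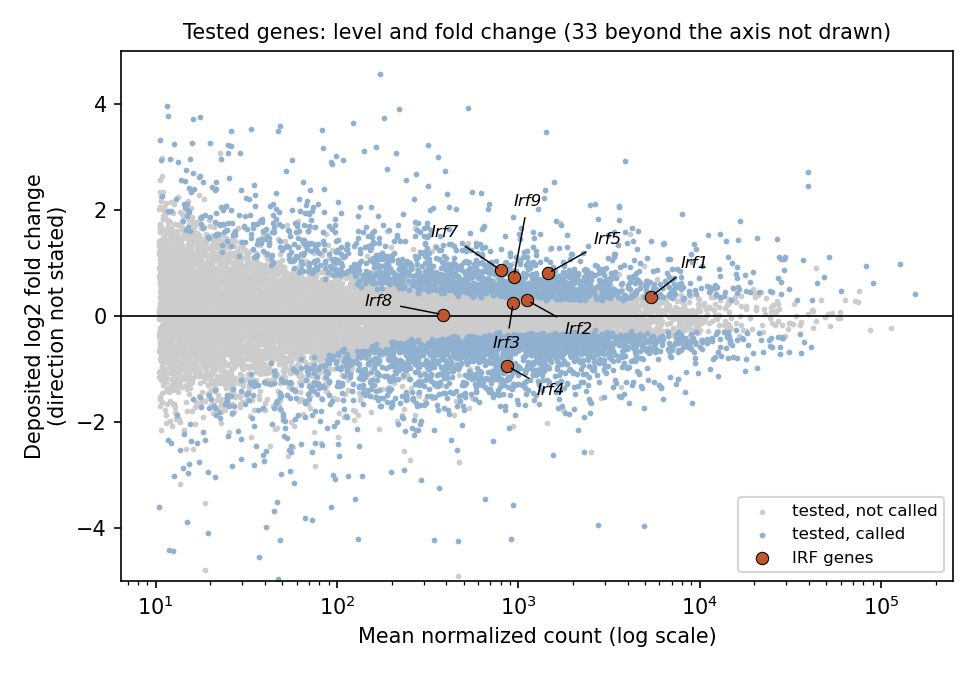
Mean normalized count (x axis, log scale) against deposited log2 fold change (y axis) for the tested genes, with called genes in blue and the 8 IRF genes labelled. The members lie between 385.3 and 5383 normalized counts, with 4 called members above 0 and 1 called member below 0. Calls also depend on the standard error, so called genes and genes not called overlap on these axes.

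Between genes, levels were compared per kb of the longest protein-coding transcript in the annotation, as means over the libraries of the fit. Irf1 was the most abundant IRF gene, at 2519 normalized counts per kb per the authors' deposited table, 49.6% of the summed level of the 8 members. That is the 96.1 percentile of the 12997 tested genes with a coding transcript length. Irf5 came next at 650 and was 3.88-fold below Irf1. Irf3 (462), Irf2 (447), Irf7 (359) and Irf9 (319) formed a middle group in normalized counts per kb. Irf4 at 183 and Irf8 at 135 were the lowest. Irf8 was 18.6-fold below Irf1 and stood at the 52.7 percentile, near the middle of the tested genes with such a length.

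The spread over samples was not used here, so neighbours in this order cannot be said to differ. The order also depends on the length used. Per kb of all annotated exons, a length chosen after the data were seen, Irf1 (1354) and Irf5 (501) kept the top places and Irf8 (54.6) the last. In between, Irf3 had 272, Irf7 213, Irf4 178, Irf9 175 and Irf2 151 normalized counts per kb, so that Irf9 and Irf2 fell behind Irf4. The members that were positive thus include the family's most abundant genes, Irf1 and Irf5, as well as Irf7 and Irf9 at lower levels.

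**Figure D4:**
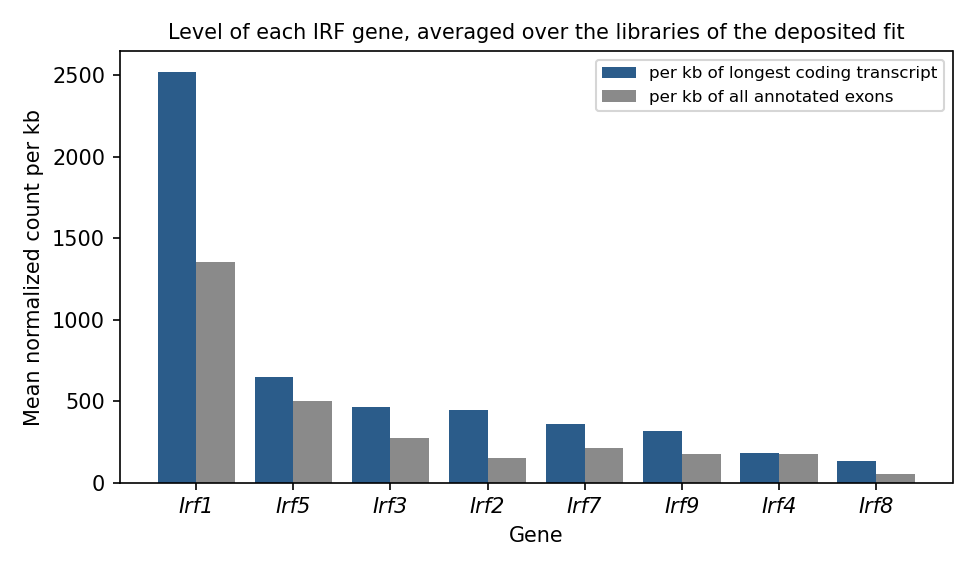
Mean normalized count per kb (y axis) of each IRF gene (x axis), per kb of the longest coding transcript (blue) and of all annotated exons (grey), averaged over the libraries of the deposited fit. Irf1 stands at 2519 and 1354, above every other member by both lengths.

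Several IRF genes share bases with a neighbour, and the labels name no step that marks strand, so reads from such bases cannot be assigned with certainty. Irf5 shares 411 exonic bases, 14.1% of its annotated exons, with Tnpo3 on the opposite strand, which had a log2 fold change of -0.04 ± 0.13 per the authors' deposited table. Irf7 shares 45 bases with Phrf1, which had 0.35 ± 0.17 and did not pass (adjusted p = 0.127) per the authors' deposited table. Irf9 shares 123 bases, 2.28% of its exons, with Rnf31 on the same strand, at 0.30 ± 0.15 (adjusted p = 0.135) per the authors' deposited table. Irf3 shares 88 bases with Bcl2l12, at -0.01 ± 0.28 per the authors' deposited table. None of Tnpo3, Phrf1, Rnf31 and Bcl2l12 was called. Irf1 shares 135 bases, 3.4% of its exons, with Gm17334, whose mean of 8.664 normalized counts carried no adjusted p per the authors' deposited table. Irf2, Irf4 and Irf8 share no exonic bases with another gene. The neighbours' part in the IRF values was not tested.

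Genes that act before and after the IRFs were read from lists chosen with earlier results of these data known. The interferons themselves were almost unmeasured. Of 13 interferon genes, 12 had means of 0.233 to 2.28 normalized counts and carried no adjusted p per the authors' deposited table. Ifng was the exception, with a mean of 24.53 normalized counts and a log2 fold change of 0.36 ± 0.66 (adjusted p = 0.748) per the authors' deposited table.

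Receptors and their JAK-STAT branch had 5 positive and 1 negative genes among 10 tested members, with a median of 0.33. Beside this, 24.5% of all tested genes were called, and 36.6% of those at or above the mean count of Irf8. The type I receptor chains had opposite signs, with Ifnar2 at 0.59 ± 0.13 and Ifnar1 at -0.60 ± 0.18 per the authors' deposited table. Ifngr1, the ligand-binding chain for interferon gamma, had 0.54 ± 0.12, and the kinase gene Jak1 had 0.46 ± 0.13 per the authors' deposited table. Stat2, whose product is bound by IRF9 in ISGF3, had 0.59 ± 0.15 (adjusted p = 0.00106) per the authors' deposited table. Irf9 and Stat2 were therefore both positive.

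Sensors and kinases that activate IRF3, IRF5 and IRF7 had 4 positive and 1 negative genes among 17 tested members, with a median of 0.21, a share of calls near the background. The RNA sensor Ddx58 (RIG-I) had 0.88 ± 0.15, Tlr4, the receptor for lipopolysaccharide, had 1.73 ± 0.37 and the IRF kinase Ikbke had 0.49 ± 0.13 per the authors' deposited table. The negative member was the adaptor Myd88, at -0.49 ± 0.17 per the authors' deposited table, a call lost after removal of a trend with gene length (adjusted p = 0.0733, range over the alternatives 0.0127 to 0.0733) and at a threshold of 0.01. Tmem173 (STING), the most abundant of these genes, had -0.17 ± 0.13 and did not pass (adjusted p = 0.352) per the authors' deposited table. The endosomal receptors Tlr7 and Tlr9, at means of 4.81 and 1.72 normalized counts, carried no adjusted p per the authors' deposited table.

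Negative regulators and corepressors had 6 positive and 2 negative genes among 13 members, with a median of 0.43. The share called was 24.5% over all tested genes and 36.6% over those at or above the mean count of Irf8. Usp18, which restrains signalling at the type I interferon receptor, had 1.62 ± 0.22, the phosphatase Dusp1 had 1.11 ± 0.16 and Tnfaip3 (A20), the most abundant member at 127504 normalized counts, had 0.99 ± 0.17 per the authors' deposited table. Among the negative genes, Trim28, a corepressor, had -0.60 ± 0.16 (adjusted p = 0.00194) per the authors' deposited table.

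Interferon-stimulated genes with an ISRE, the targets of IRF9, IRF7 and IRF3, had 6 positive and 1 negative genes among 26 tested members, and 19 lay above 0, with a median of 0.29. That share of calls is close to the 24.5% of all tested genes. Rtp4 had 1.58 ± 0.29, the antiviral synthetase Oas1a had 0.87 ± 0.19 and Dtx3l had 0.56 ± 0.13 per the authors' deposited table. Cmpk2 was the negative member, at -0.77 ± 0.19 per the authors' deposited table. Isg15 (-0.13 ± 0.20) and Ifit1 (-0.09 ± 0.38), classical members named after their values were seen, did not pass (adjusted p = 0.678 and 0.896) per the authors' deposited table. Oas and Ifit genes have close paralogs that can share reads, so their values are uncertain.

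Antigen presentation, GBP and other genes known to depend on IRF1 had 8 positive and 3 negative genes among 23 members, with a median of 0.20. Calls stood at 24.5% over all tested genes and 36.6% over those at or above the mean count of Irf8. Fold changes lay above 0 for 13 members of the list and below 0 for 10. The class I genes H2-K1 and H2-D1 had 0.62 ± 0.15 and 0.42 ± 0.13 per the authors' deposited table. Other antigen presentation genes, named after their values were seen, had both signs. Tap2 was positive at 0.31 ± 0.10 and Psmb8 negative at -0.40 ± 0.14 per the authors' deposited table. B2m (0.29 ± 0.15) lay above 0 and did not pass. Psmb9 (-0.32 ± 0.13), Psmb10 (-0.26 ± 0.14), Psme1 (-0.23 ± 0.13) and Psme2 (-0.26 ± 0.12) lay below 0 and did not pass. The guanylate-binding proteins had both signs, with Gbp4 at 0.78 ± 0.19 and Gbp3 at -1.06 ± 0.18 per the authors' deposited table. Class I and GBP genes belong to families of similar sequence that can share reads.

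DNA-binding partners of IRF4 and IRF8 had 2 positive and 2 negative genes among 12 members, with a median of -0.13. That share of calls lies between the 24.5% of all tested genes and the 36.6% of those at or above the mean count of Irf8. Batf, which pairs with JUN proteins to recruit IRF4, had the sign of Irf4, at -0.62 ± 0.14 (adjusted p = 0.000101) per the authors' deposited table. Its relative Batf3, the other negative member, had -3.01 ± 1.04 at a mean of 12.69 normalized counts per the authors' deposited table, a low count with a wide error, and was named after its value was seen. Jun had the opposite sign, at 1.45 ± 0.16, and Nfatc2 had 0.88 ± 0.20 per the authors' deposited table. Junb, the most abundant partner, had 0.48 ± 0.20 (adjusted p = 0.0642) per the authors' deposited table. It passed under 3 of 5 alternatives (range 0.0195 to 0.161).

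Genes known to depend on IRF4 in lymphocytes were called in 15 of 17 tested members, beside 24.5% of all tested genes. The calls had both signs, with 10 positive and 5 negative, and the median was 0.54. Ctla4, an inhibitory receptor, had -2.15 ± 0.26 and the type 2 cytokine Il13 had -1.06 ± 0.18 per the authors' deposited table, the sign of Irf4. Myc had 1.10 ± 0.21 and Gata3, the lineage factor of ILC2s, had 0.63 ± 0.16 per the authors' deposited table, opposite in sign to Irf4. This list was drawn up with values of these genes already known, so its high share of calls is not independent evidence. It does not sort genes by whether IRF4 activates or represses them, so its tally and median say nothing of IRF4 activity.

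**Figure D5:**
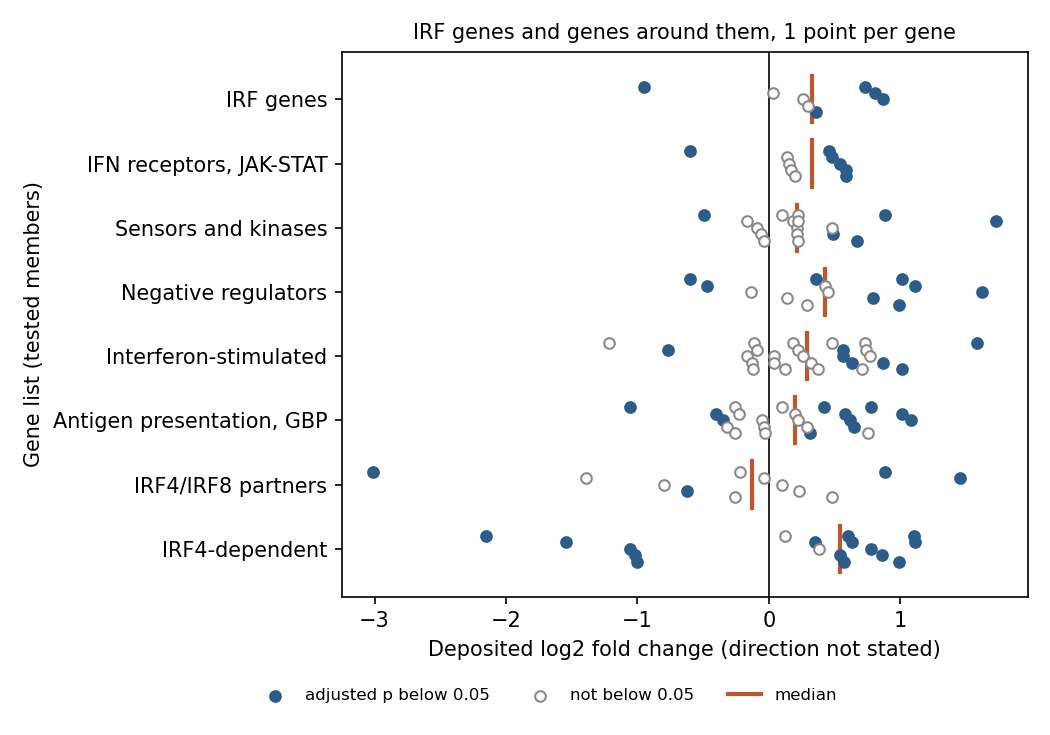
Deposited log2 fold change (x axis) of each tested gene, 1 point per gene, for the IRF genes and 7 lists around them (y axis), filled where the adjusted p was below 0.05, with the median of each list as a line. Medians lie between 0.20 and 0.54 in each list except that of the IRF4 and IRF8 partners, at -0.13.

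The sorted cells carried the markers of their label. All 14 ILC2 markers were tested, and they summed to 219732 normalized counts, with Gata3 at 44552, per the authors' deposited table. Of these, 3 were positive and 4 negative, beside 11.0% and 13.5% of all tested genes. Since Irf5 and Irf8 are best known from myeloid and B cells, markers of those cells were read beside them. Macrophage and monocyte markers were called in 1 of 10 tested members, dendritic cell markers in 3 of 8, B cell markers in 2 of 7 and neutrophil markers in 1 of 6, all as negative, beside 13.5% of all tested genes called as negative. The shares of macrophage and monocyte and of neutrophil markers are thus near that background. Fold changes below 0 were listed for 8 of 10 macrophage and monocyte, 6 of 8 dendritic cell, 7 of 7 B cell and 6 of 6 neutrophil markers. Summed over each list of markers, means were 4973 normalized counts for macrophages and monocytes, 19712 for dendritic cells, 7443 for B cells, 1025 for neutrophils, 2438 for T cells and 150.4 for NK cells and ILC1s per the authors' deposited table. Several sums rest mostly on few genes: Lyz2 (4469), Cd74 (11427) with H2-Ab1 (4959), Ighm (6265) and Cd3g (1605). Such a sum is therefore not a measure of how many cells of a type were present. C1qa, which averaged 38.82 normalized counts, was listed at -2.63 ± 0.78 and Lyz2, the most abundant macrophage marker, had -0.75 ± 0.80 (adjusted p = 0.546) per the authors' deposited table. Cd79b had -0.88 ± 0.23 and Ighm -1.56 ± 0.53 per the authors' deposited table. H2-Ab1 had -1.74 ± 0.22 and Cd74 -0.99 ± 0.21 per the authors' deposited table, and activated ILC2s express both genes too. Zbtb46, the other called dendritic cell marker, averaged 770.5 normalized counts and had -1.03 ± 0.23 (adjusted p = 0.000136) per the authors' deposited table. Xcr1, of the same list, averaged 498.9 and lay above 0, at 0.32 ± 0.19 (adjusted p = 0.224), per the authors' deposited table. Both were named after their values were seen. The markers Pax5, Clec9a and Siglech, at means of 9.91, 5.40 and 8.53 normalized counts, were too low to carry an adjusted p per the authors' deposited table. Among T cell markers, 1 of 6 was called (Cd3g, -0.66 ± 0.19) and among NK cell and ILC1 markers 0 of 3 (Prf1, 0.80 ± 0.57, adjusted p = 0.33) per the authors' deposited table. Levels of these markers in single KO and WT samples were not used, and their part in the values of the IRF genes was not tested.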

How the data were processed

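Sorted lung ILC2s were profiled by RNA sequencing in 3 KO and 3 WT samples. Per the labels, SMART-Seq HT gave the cDNA and TruePrep V2 the libraries. The submitters' processing notes name HISAT2, Cufflinks and mm10, without versions. How reads were counted, filtered and assigned to strands is not stated in the sources used here.

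Per the file headers, the authors deposited these per-gene values: the average normalized count (a signal), the fold change and its error in log2, the score of the test, and p-values before and after adjustment. Dividing fold change by error returned the score to within 2.4e-07, the normal distribution (2-sided) returned p to within 5e-08, and Benjamini-Hochberg adjustment across 14961 genes returned the adjusted p to within 7.6e-07. Another 24483 genes with a p-value carried no adjusted p, and the lowest mean with one was 10.46. The 12 columns that hold values of single samples carry 6 names found in no label and were left out, so the planned count fit was replaced by the authors' comparison, called at an adjusted p below 0.05. Whether replicates were separate cell preparations beyond the pooling of mice is not stated.

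Intervals of 95% and ratios were computed from the deposited values under a normal distribution. Lengths and coordinates came from GENCODE M21 (mm10) and promoters from RefSeq (GRCm38.p6), in which all 8 members were found. The adjustment of p, the recentring and the removal of the length trend were run on simulated normal fold changes with the deposited standard errors. The motif search, lengths, overlaps and lists were not part of that simulation. Computation used pandas 2.3.3, scipy 1.17.1, statsmodels 0.14.6 and numpy 2.4.6 under Python 3.11.15, with matplotlib 3.10.9 for the plots.

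The members and lists were chosen with earlier results of these data known. Named genes were the 8 members, Stk11, from each pathway list the 3 tested members with the smallest p, the one with the highest mean count (not corrected for length) and exceptions in direction, and from each marker list the one with the highest mean count and the one with the smallest p. A symbol on several rows was read from the row with the highest mean count. Some genes of these lists are counted but not reported here by name.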

Additional observations from a re-analysis of the deposited data

How the results depend on the processing

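The 5 alternatives were a threshold of 0.01, adjustment over every gene with a p-value, adjustment over genes with a mean of at least 100 normalized counts, recentring on the most abundant 25% of genes (a shift of -0.037 in log2), and removal of a lowess trend with exonic length. Over all genes, 3668 calls became 2363 at 0.01 and between 2853 and 3657 otherwise. Of 40 member values, 37 kept direction and side of the threshold. Irf1 (0.36) lost its call at 0.01, where the authors' adjusted p is 0.0357, and under Benjamini-Hochberg adjustment without a filter, at 0.0918 (range 0.0185 to 0.0918). Irf8, not called, had -0.05 after removal of the length trend. Calls among the IRF genes numbered 4 or 5. Calls among sensors and kinases fell to 3 both at 0.01 and after removal of the length trend, against 5. Other named genes kept their side in 204 of 216 cases, with 9 calls lost and 3 gained. Fold changes followed exonic length weakly over 14922 genes (Spearman rho 0.187), with medians of -0.16 for the shortest 25% and 0.16 for the longest 25%. No paired analysis was possible because the columns used carry no replicate numbers. Other count tools, other normalizations and leaving out replicates were not run, because the columns of single samples matched no label. The cause of these differences was not tested beyond the settings themselves.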
